A study of Rattus norvegicus with 10 samples.

Results

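The 6 genes of the homeobox (Hox) family followed here in rat primary cortical neuron cultures were Hoxc13, Hoxc10, Hoxc8, Hoxc6 and Hoxc4 of the Hoxc cluster, and Hoxb13 of the Hoxb cluster. They are 6 of the 32883 Ensembl genes in the deposited table, and they were chosen on their measured values, because few or no reads were counted in control cultures and more in treated ones. Their rise with either drug is therefore given as a description with no test. The cultures came from the cortices of Wistar rat pups, and drugs were added after 14 days in vitro without washout. Trichostatin A (TSA, 100 nM) was present for 19 h in 3 cultures, which had 3 time-matched controls. Sodium butyrate (NaB) was present for 24 h in 2 cultures, which had 2 controls of their own. The NaB dose is 5 mM in the study's methods and 5 µM in the sample labels. Both drugs are broad inhibitors of histone deacetylases (HDACs), the enzymes that take acetyl groups off histones. The study asked how such inhibition shifts the programs of master transcription factors in brain cells. The study describes the NaB experiment as a separate project, so drug, incubation time and project cannot be told apart between the experiments. Since the cultures are mixtures of neurons and glia read out in bulk, more cells with a transcript and more transcript per cell cannot be told apart either. The label of neuron cultures could not be checked here, since none of the 8 neuron markers on the list used (such as Rbfox3 and Map2) had a symbol paired with its identifier.

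Hox genes encode transcription factors that bind DNA through a homeodomain and give cells their position along the head-to-tail axis of the embryo. They lie in clusters, and genes at the group 4 end are generally used further forward and earlier than genes at the group 13 end. The forebrain, from which these cortical cells come, is normally a territory without Hox expression, where the clusters are held silent by Polycomb proteins on chromatin that bears little histone acetylation. Hoxc10, Hoxc8 and Hoxc6 are known for their part in the identity of spinal motor neurons, Hoxc4 for the neck region of the spine, Hoxc13 for hair and nails, and Hoxb13 for the tail end of the body and the prostate.

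In the RefSeq annotation of the rat genome GRCr8, which gives the order of genes here, the Hoxc cluster on chromosome 7 holds 9 genes in the order Hoxc13, Hoxc12, Hoxc11, Hoxc10, Hoxc9, Hoxc8, Hoxc6, Hoxc5 and Hoxc4. Only 5 of these had a symbol paired with an Ensembl identifier in the tables used, so Hoxc12, Hoxc11, Hoxc9 and Hoxc5 were not analysed here. Hoxb13 lies on chromosome 10, beyond Hoxb9. In this annotation the gene model of Hoxc6 overlaps those of Hoxc5 and Hoxc4. The reads were counted on gene models of another build, Rnor_6.0, where the overlap was not checked. How reads in such an overlap were assigned is not given in the sources used here. The counts of Hoxc6 and Hoxc4 are uncertain to that extent. Of the 6 genes, Hoxc4 alone had an entry in the RefSeq promoter table used. Its 250 bases before the gene start (GRCr8, plus strand, chr7:136048809-136049058) are shown because Hoxc4 went from no read in any control to reads in every treated library. Capitals mark the CpG pairs, the sites that DNA methylation uses.

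Hoxc4 promoter: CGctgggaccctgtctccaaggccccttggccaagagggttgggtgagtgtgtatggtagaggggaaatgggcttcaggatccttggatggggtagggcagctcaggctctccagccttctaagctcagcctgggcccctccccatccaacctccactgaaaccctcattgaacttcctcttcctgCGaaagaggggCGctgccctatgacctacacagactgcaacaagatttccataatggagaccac

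The stretch had a GC content of 57.2%, against a median of 51.2% over the 33469 promoters of the same length in the table, and 32.1% of these had at least this content. It held 3 CpG pairs, and 71.4% of promoters had at least as many (median 5). Searched on both strands, it held no CCAAT (34% of promoters did), no TATAAA (12.9%) and no GGGCGG, the core of the GC box (30.5%). It held 1 AGGTCA, the core letters that nuclear receptors such as the retinoic acid receptors read, as TGACCT starting at position -43 from the gene start. Of all promoters, 14.1% held these letters. A match of letters describes the sequence and is no evidence of binding.

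Values are normalized read counts, in which each library has been scaled by a size factor so that 1 read is worth about 1 normalized count. Recovered reads per library numbered 27124552, 26956397 and 27649249 in the controls for TSA, 26981930, 27606793 and 26070908 with TSA, 26748731 and 26902233 in the NaB controls, and 27426771 and 26844994 in the NaB-treated cultures. A gene without a read at this depth can hold a share of up to 3 reads, or 0.109 to 0.115 CPM (reads scaled to a common library total). This limit and all counting intervals below cover counting error only. Since no transcript lengths were used, levels are compared between libraries, never between genes.

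In control cultures the 6 genes were at or near 0. Of their 30 values in the 5 control libraries, 21 were 0 reads and the highest was 2 reads. The 6 genes together had 1, 1 and 3 reads in the controls for TSA and 4 and 4 reads in the controls for NaB, 13 reads in all. With TSA the sum was 288, 153 and 304 reads, and with NaB 275 and 294 reads. Every treated library held reads of all 6 genes.

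**Figure D1:**
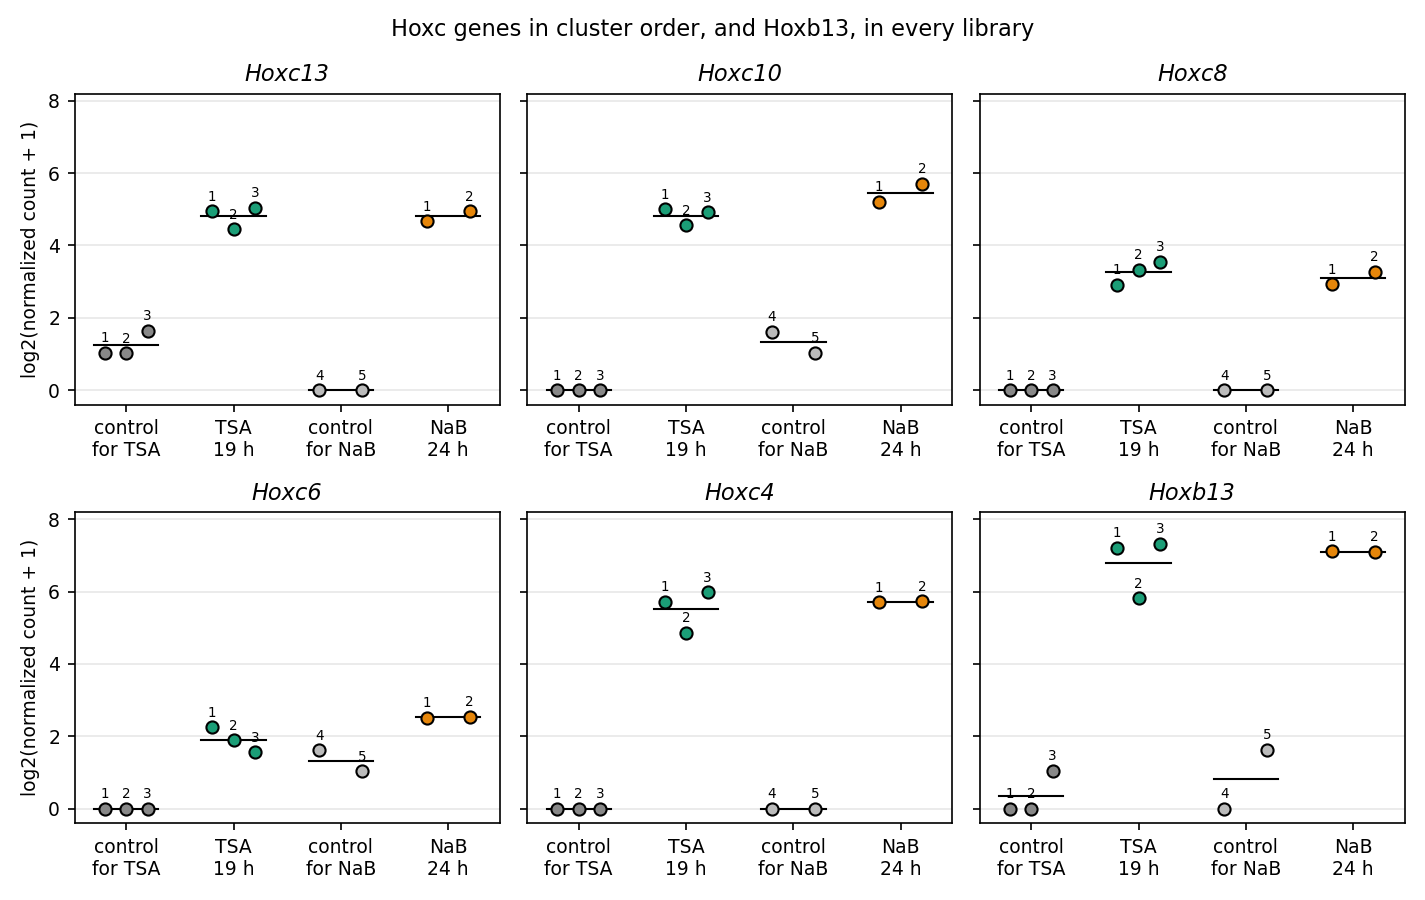
Normalized counts of Hoxc13, Hoxc10, Hoxc8, Hoxc6, Hoxc4 and Hoxb13 in each library, on the vertical axis as log2(normalized count + 1), by group on the horizontal axis. Each point is a library with its replicate number, and the short line is the mean of the group on this scale. In all 6 panels every treated library lies above every control library of its experiment, and TSA replicate 2 is the lowest TSA library for Hoxc13, Hoxc10, Hoxc4 and Hoxb13.

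Hoxc13 (ENSRNOG00000028679), at the group 13 end of the cluster, had 1.05, 1.03 and 2.13 normalized counts in the controls for TSA and 30.0, 20.8 and 32.1 with TSA. The means were 1.41 ± 0.630 and 27.6 ± 5.99 (SD, n = 3 each), and the ratio of the reads pooled over libraries, scaled by the size factors, was 19.6 with a 95% counting interval of 7.40 to 73.6. Other ratios with an interval were made in the same way. It had no read in the controls for NaB and 24.6 and 29.9 normalized counts with NaB (27.2 ± 3.76, SD, n = 2), at least 8.73-fold above the level of 3 reads per library. Hoxc13 was thus the gene of the 6 with reads in all 3 controls for TSA, 1 or 2 in each, while its treated libraries lay in the same range in both experiments and overlapped no control.

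Hoxc10 (ENSRNOG00000016149), a gene of the lumbar spinal cord, showed the opposite pattern in the controls. Its reads were 0 in all 3 controls for TSA, and its values with TSA were 30.9, 22.6 and 29.1 normalized counts (27.6 ± 4.38, SD, n = 3), at least 8.75-fold above the level of 3 reads. The controls for NaB had 2.07 and 1.04 normalized counts and the NaB libraries 35.9 and 51.1, with means of 1.56 ± 0.726 and 43.5 ± 10.7 (SD, n = 2 each). The ratio was 27.9 (95% counting interval 9.23 to 137.5). Both NaB libraries lay above all 3 TSA libraries. Groups of control and treated libraries did not overlap in either experiment.

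Hoxc8 (ENSRNOG00000028619), a gene of the brachial to thoracic cord, was the member with no read in any of the 5 controls beside Hoxc4. Its values were 6.56, 9.05 and 10.7 normalized counts with TSA (8.77 ± 2.08, SD, n = 3) and 6.62 and 8.68 with NaB (7.65 ± 1.46, SD, n = 2). These are at least 2.78-fold and at least 2.45-fold above the level of 3 reads. The NaB libraries lay within the range of the TSA libraries.

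Hoxc6 (ENSRNOG00000016442), a gene of brachial motor neurons, was counted with at most 5 reads in any treated library. It had no read in the controls for TSA and 3.75, 2.71 and 1.94 normalized counts with TSA (2.80 ± 0.907, SD, n = 3), which is 4, 3 and 2 reads. No fold is given, since the treated libraries lie at about the level of 3 reads and the controls below it. In the NaB experiment the controls had 2.07 and 1.04 normalized counts and the treated libraries 4.73 and 4.82 (1.56 ± 0.726 and 4.77 ± 0.0673, SD, n = 2 each). The ratio was 3.06, and its 95% counting interval of 0.788 to 17.3 includes 1. The treated libraries lay above the controls in both experiments. In the fit across all genes without the filter on low counts, all 12 named Hox genes, Hoxc6 and Hoxc8 among them, were called higher with each drug, where 15.6% of the 24293 genes fitted were with TSA and 14.9% with NaB. Nothing is read from this, since the choice of the genes used these contrasts.

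Hoxc4 (ENSRNOG00000016613), at the other end of the cluster, had no read in any control. With TSA it had 51.6, 28.0 and 62.2 normalized counts (47.3 ± 17.5, SD, n = 3), at least 15.0-fold above the level of 3 reads. With NaB it had 51.0 and 52.1 normalized counts (51.5 ± 0.727, SD, n = 2), at least 16.5-fold above that level. The NaB libraries lay within the range of the TSA libraries, of which replicate 2 was the low one.

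Hoxb13 (ENSRNOG00000007491), the group 13 gene of the Hoxb cluster, had 0, 0 and 1.07 normalized counts in the controls for TSA and 147, 55.2 and 159 with TSA. The means were 0.356 ± 0.616 and 121 ± 57.0 (SD, n = 3 each). The ratio of the pooled reads, scaled by the size factors, was 341, rests on 1 control read and has a 95% counting interval of 60.8 to 13500. In the NaB experiment the controls had 0 and 2.09 normalized counts and the treated libraries 137.0 and 136.9 (1.04 ± 1.48 and 137 ± 0.0925, SD, n = 2 each). The ratio of pooled reads was 132 (95% counting interval 36.1 to 1093). Both control reads came from replicate 5, and the log2 change of 6.29 was 7.11 without this library and 5.48 without control replicate 4. No control library came near a treated one, and the NaB libraries again fell inside the range of the TSA libraries.

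All 6 genes had every treated library above every control of the same experiment with both drugs, which the choice of the genes fixes. Among the 24293 genes with at least 1 read, 23.7% had this order in the TSA experiment and 31.4% in the NaB experiment. Among the 7139 genes with at most 3 reads in every control library, 477 genes, or 6.68%, lay above the controls in both experiments, and the 6 genes are among these 477. In the fit across all genes (limma), genes counted as called had an adjusted p below 0.05 and moved by at least 0.5 on the log2 scale. Hoxc8 and Hoxc6 did not reach the filter on low counts, which kept 15717 genes. The other 4 were called higher with both TSA and NaB, against 22.5% of tested genes called higher with TSA and 21.2% with NaB. Nothing is read from this count, since these 4 passed the filter through their treated libraries.

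The difference between the responses, the log2 change with NaB minus the log2 change with TSA, was tested in the same limma fit. The genes were not chosen on this difference itself. They were chosen on the control and treated values from which it is built, and the 4 tested passed the filter through their treated libraries. The p-values of the difference are therefore not free of the choice. None of the 4 tested genes was called, where 0.299% of all tested genes were (47 of 15717, of which 4 had the higher change with NaB and 43 the lower, with 1978 genes at an unadjusted p below 0.05). With control and treated cultures of a plate kept as a block, 404 genes were called, 28% of them with the higher change with NaB, and still none of the 4. DESeq2 called 255 genes. In the limma fit without the block, leaving out control replicate 5 or 4 for NaB brought the 47 down to 1 or 3. For Hoxc13 the difference was 1.23 (SE 0.58, 95% interval -0.04 to 2.51, limma adjusted p = 0.417, unadjusted p = 0.057). Here the treated libraries of both experiments lay in the same range, and the controls differed, with 1, 1 and 2 reads against 0 and 0. For Hoxc10 the difference was -0.69 (95% interval -1.94 to 0.55, limma adjusted p = 0.656), with both treated and control libraries higher in the NaB experiment. Hoxc4 differed by 0.20 (-1.13 to 1.52, limma adjusted p = 0.928) and Hoxb13 by -0.14 (-2.01 to 1.73, limma adjusted p = 0.967). In the fit without the filter, Hoxc8 differed by -0.16 (-1.25 to 0.92, limma adjusted p = 0.93) and Hoxc6 by -0.70 (-1.80 to 0.41, limma adjusted p = 0.687). All these intervals include 0, and their ends lie between -2.01 and 2.51, so that they leave room for differences of more than 1 log2 unit for Hoxc13, Hoxc10, Hoxc6, Hoxc4 and Hoxb13 and, toward a lower change with NaB, for Hoxc8. They do not show that TSA and NaB act alike on these genes. The estimates also moved with the tool and scale: on the recovered reads edgeR and DESeq2 gave 3.60 and 2.85 for Hoxc13 and -3.12 and -2.35 for Hoxc10, beyond the limma intervals. With a pseudocount of 5 Hoxc10 (0.18) and Hoxb13 (0.15) changed sign.

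**Figure D2:**
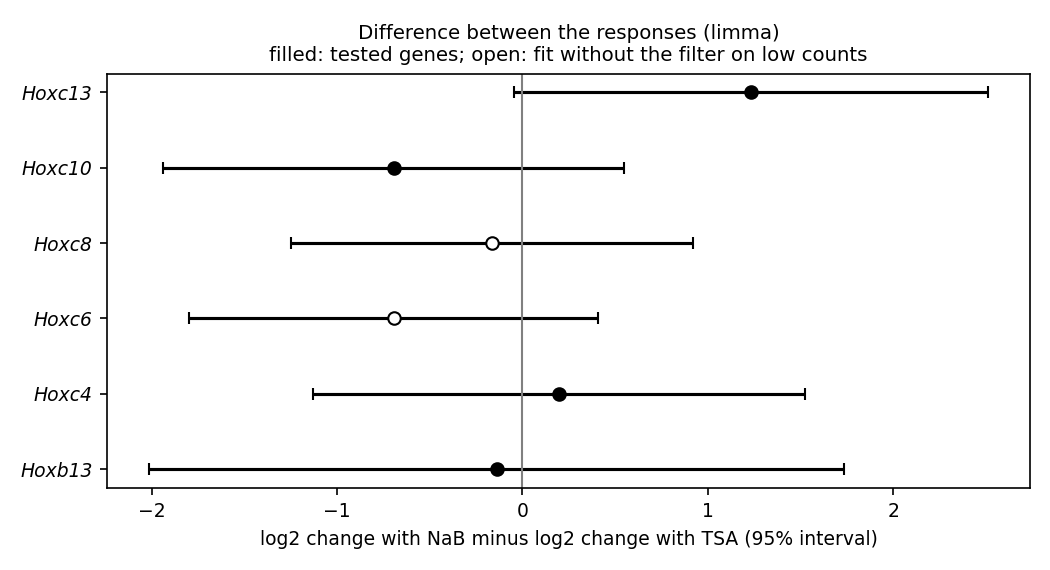
Difference between the log2 change with NaB and the log2 change with TSA on the horizontal axis, for the 6 genes on the vertical axis, on the log2(normalized count + 1) scale. Points are limma estimates and bars their 95% intervals, with filled points for the 4 tested genes and open points for Hoxc8 and Hoxc6 in the fit without the filter. Every interval crosses 0, and that of Hoxc13 does so by the smallest margin (-0.04).

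The TSA libraries differed in how high they stood for these genes. TSA replicate 2, singled out because its values were low, had 0.360 times the mean Hoxb13 level of the other TSA libraries (95% counting interval 0.269 to 0.475) and 0.494 times their Hoxc4 level (0.321 to 0.738). The ratio was 0.671 for Hoxc13 (0.398 to 1.09), 0.752 for Hoxc10 (0.453 to 1.21), 1.05 for Hoxc8 (0.434 to 2.41) and 0.948 for Hoxc6 (0.153 to 4.44). The intervals of the 6 genes overlap, and no difference between genes was tested. They cover counting error only, not the spread between cultures, so they are no test of this library. For the 6 genes summed the ratio was 0.490 (0.407 to 0.586), and Hoxb13 holds much of this sum. The 5 Hoxc genes summed had 123, 83.2 and 136 normalized counts in the TSA libraries and 123 and 147 in the NaB libraries. The ratio was 0.497 (0.396 to 0.620) for the sum of 6 genes of the Hoxd cluster (Hoxd1, Hoxd3, Hoxd4, Hoxd8, Hoxd9 and Hoxd10), another Hox cluster on a chromosome of its own. The 466 other genes with at most 3 reads in every control and higher values with both drugs, with the named Hox genes left out, gave 0.742 when summed (0.720 to 0.764), and taken gene by gene they had a median ratio of 0.807, with 63.5% of them below 1.

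In the NaB experiment, replicate 2 had 1.42 times the Hoxc10 level of replicate 1 (95% counting interval 0.921 to 2.22) and 1.09 times the sum of the 6 genes, with a counting interval that starts at 0.922 and includes 1. The summed Hoxd level was 179, 92.3 and 192 normalized counts in the TSA libraries and 190 and 226 in the NaB libraries. TSA replicate 2 also stood nearer to the controls over all tested genes. On the first principal component, which held 73.5% of the variance, the TSA libraries scored 69.7, 54.2 and 68.9, the NaB libraries 76.6 and 76.4, and the controls -74.5 to -62.5. Over the 2667 genes called higher with both drugs, in contrast, its median log2 change of 1.32 was close to the 1.40 and 1.34 of the other TSA libraries. The part of this library's overall position in its lower Hox levels was not tested.

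**Figure D3:**
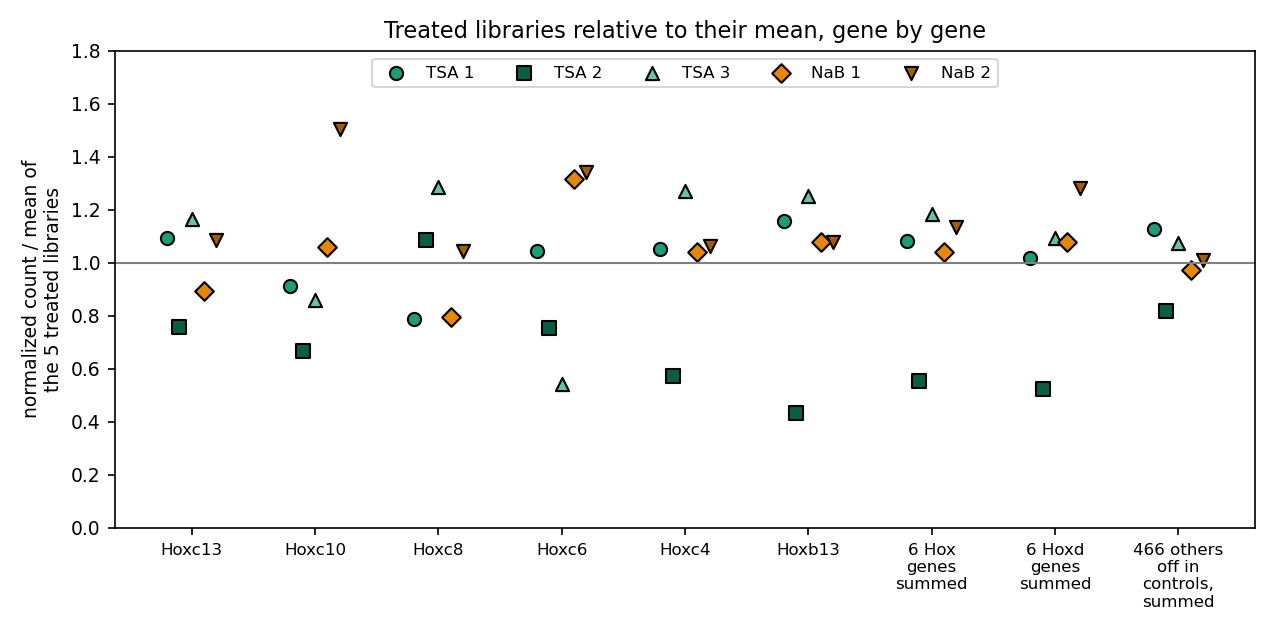
Normalized count of each gene in each treated library, divided by its mean over the 5 treated libraries (vertical axis, no unit), for the 6 genes, their sum, the sum of 6 Hoxd genes and the sum of 466 other genes that were off in controls and on with both drugs (horizontal axis). Symbols stand for single libraries and the line marks the mean. TSA replicate 2 (squares) is the lowest point for Hoxc13, Hoxc10, Hoxc4, Hoxb13 and all 3 sums, and for Hoxc8 and Hoxc6 it lies among the others.

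By the profile of log2(normalized count + 1) over the 10 libraries, centred on each gene's mean, the tested genes most like the summed Hoxc genes were Hmx1, a homeobox factor, with a root mean square difference of 0.29, then Bmp8a (0.36), a secreted growth factor, Plcg2 (0.39), a phospholipase, Tfap2e (0.39) and Ebf3 (0.40), both transcription factors. Hmx1 had 1.05, 2.06 and 3.20 normalized counts in the controls for TSA, 161, 127 and 181 with TSA, 4.14 and 3.13 in the NaB controls and 101 and 137 in the NaB libraries. The genes most like Hoxb13 in profile were F11r (0.27), a junctional adhesion molecule, followed by Pou4f2 (0.47), a factor of retinal ganglion cells, Prlhr (0.50), a neuropeptide receptor, Rbmxl2 (0.52), an RNA-binding protein of the testis, and Nkx6-1 (0.54), a homeobox factor of ventral spinal progenitors. F11r had 2.11 ± 1.08 normalized counts in the controls for TSA and 260 ± 82.0 with TSA (SD, n = 3 each), and 4.17 ± 4.44 and 260 ± 11.8 in the NaB experiment (SD, n = 2 each). Likeness here is over all 10 libraries and is set mainly by the step from control to treated.

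Other genes that set or read Hox expression could be described only where a symbol was paired with an identifier. The symbols came from readable rows of the authors' table of upregulated genes, so a named gene was bound to be higher and the counts below say nothing of a list as a whole. Of 39 Hox genes, 12 were named (the 6 described here and 6 of the Hoxd cluster), and 9 of the 9 that passed the filter were called higher with each drug, where 22.5% of all tested genes were with TSA and 21.2% with NaB. In the other lists, 12 of 114 genes were named and 11 passed the filter, of which 9 were called higher with TSA and 10 with NaB, none was called lower, and none was called in the difference between the responses, where the share over all tested genes was 0.299%.

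Cdx2, a homeobox factor that activates Hox genes in the embryo, had no read in any control and 5.33 ± 1.98 normalized counts with TSA (SD, n = 3) and 6.18 ± 3.29 with NaB (SD, n = 2). It did not reach the filter. Aldh1a2, which makes retinoic acid, rose from 8.13 ± 6.96 to 103 ± 24.7 normalized counts with TSA and from 2.59 ± 3.66 to 63.1 ± 10.3 with NaB (SD, n = 3 and n = 2). The log2 changes were 3.92 and 4.68. Cyp26b1, which breaks retinoic acid down, rose by 1.42 and 1.48 on the log2 scale. Among genes of Polycomb repressive complex 1, which holds Hox clusters silent, Cbx7 rose by 2.16 with TSA and 2.21 with NaB, and Pcgf5 by 1.22 and 0.99. No gene of Polycomb repressive complex 2, of the trithorax group, of the Hox cofactors or of the histone deacetylases was named.

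Of the lists of markers of cell types and of forebrain position, 7 genes were named. For spinal motor neurons, a cell type outside the cortex in which Hoxc genes are normally used, these were Mnx1, Lhx3 and Slc5a7. Mnx1, a homeobox factor of motor neurons, had 2.11, 0 and 0 normalized counts in the controls for TSA, 44.1, 16.3 and 59.3 with TSA, 1.04 and 0 in the NaB controls and 38.7 and 43.4 in the NaB libraries. Replicate 2 was the lowest TSA library for Mnx1 and Slc5a7, but for Lhx3 the lowest was replicate 3. Among the regulators of Hox expression described above, replicate 2 was the lowest TSA library for Cdx2 and Aldh1a2. It was the highest for Cyp26b1, Cbx7 and Pcgf5. Lhx3, another motor neuron factor, rose by 1.16 and 2.15 on the log2 scale and Slc5a7, the choline transporter, by 2.21 and 3.12. Isl1 and Chat, the other markers on this list of 5, were not named.

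Otx1, a forebrain factor, rose by 1.32 with TSA and 0.81 with NaB, and Kdr, an endothelial receptor, by 2.53 and 1.27. Tmem119, a microglial marker, changed by 0.48 with TSA (limma adjusted p = 0.459) and rose by 2.51 with NaB, from 1.56 ± 0.744 to 13.3 ± 2.51 normalized counts (SD, n = 2 each). Col1a1, the fibroblast collagen, differed widely between the controls for TSA, with 909, 47.4 and 1379 normalized counts, and had 798, 696 and 879 with TSA. Its log2 change of 1.00 did not pass the test (limma adjusted p = 0.381). With NaB it had 876 and 961 normalized counts against 149 and 137 in the controls (log2 change 2.68, limma adjusted p = 0.0735). The part of fibroblasts, endothelium and microglia in the Hox levels was not tested, since 1 of 5 markers was named for each.

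Along the chromosomes, the 3 nearest protein-coding genes on either side of the Hoxc cluster and of Hoxb13 in the GRCr8 gene order had no paired identifier, among them Smug1, Cbx5 and Calcoco1. Near the Hoxc cluster, the first genes that could be followed were Nfe2, a blood cell factor 4 genes beyond Hoxc4, Itga5, an integrin 8 genes beyond, and Nckap1l, an actin regulator 11 genes beyond. They were chosen by position but named from the table of upregulated genes. Nfe2 had 4.90 ± 2.42 normalized counts in the controls for TSA and 10.6 ± 3.40 with TSA (SD, n = 3 each), and 3.12 ± 1.49 and 16.2 ± 1.12 in the NaB experiment (SD, n = 2 each). Itga5 had 43.3 ± 17.3 and 369 ± 31.8 in the TSA experiment and 27.1 ± 14.9 and 329 ± 18.8 in the NaB experiment. Nckap1l had 22.6 ± 10.0 and 72.0 ± 5.26, and 29.1 ± 0.174 and 119 ± 9.12. On the Hoxc13 side the first was Itgb7, an integrin 20 genes away, with 2.10 ± 1.05 and 10.3 ± 3.33 in the TSA experiment and 2.08 ± 1.48 and 24.3 ± 3.03 in the NaB experiment.

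Near Hoxb13, the genes that could be followed were likewise named only from the authors' upregulated genes, so each was bound to be higher. Phospho1, a phosphatase of bone mineralization 11 genes before Hoxb13, had 151 ± 42.0 normalized counts in the controls for TSA and 570 ± 80.8 with TSA (SD, n = 3 each). It had 143 ± 22.7 and 647 ± 127 in the NaB experiment (SD, n = 2 each). Nxph3 and Fam117a, 16 and 19 genes before Hoxb13, had 143 ± 49.8 and 78.1 ± 1.89 in the controls for TSA and 315 ± 28.0 and 199 ± 40.5 with TSA. On the other side, Copz2, a coat protein subunit of transport vesicles 14 genes beyond, had 24.9 ± 8.99 and 176 ± 7.43 in the TSA experiment. Sp6, a zinc finger factor 19 genes beyond, had 3.83 ± 3.63 and 52.5 ± 2.45, and Tbx21, a T-box factor of lymphocytes 24 genes beyond, had 1.76 ± 2.19 and 29.6 ± 10.2. With NaB the treated means of Copz2, Sp6 and Tbx21 were 168 ± 9.78, 37.7 ± 1.21 and 29.1 ± 1.61, against 43.2 ± 6.87, 6.25 ± 2.98 and 1.56 ± 0.744 in the controls (SD, n = 2 each). Sp6 and Tbx21 each had 1 control library without a read, while the other followed neighbours had reads in every control library.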

How the data were processed

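RNA sequencing measured 10 libraries of 4 groups. Per the labels and the study's methods, the authors mapped paired reads to Rnor_6.0 with STAR 2.7.9a, counted them per gene with featureCounts 2.0.1 and divided them by DESeq2 (1.29) size factors. The deposited signal is this normalized count, without coordinates or symbols. Division by the smallest value above 0 of each library gave whole reads for 100% of 194858 values (tolerance 0.001). No deposited column was left unused.

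The 6 genes, the lists and the tests were chosen with earlier results of these data known. Symbols came from 1911 readable rows of the authors' supplementary table of upregulated genes, and its fold changes and p-values were not used. Genes named are the 6, named Hox genes, at most 4 genes per list by adjusted p with TSA, the 5 nearest profiles and the 3 nearest named neighbours by position.

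The main test was limma 3.58.1 (R 4.3.3, trend) on log2(normalized count + 1), over 15717 of 24293 genes with at least 1 read (filterByExpr, minimum count 10), with all 10 libraries in 4 groups, two-sided, with Benjamini-Hochberg adjustment. Fold changes on this scale understate changes of low genes. Counting intervals are exact and 95%. A fold against a group without a read was computed against 3 reads per library. The scripts were tested on simulated data. Alternatives were pseudocounts of 0.5 and 5, no filter, TMM factors, library totals, edgeR 4.0.16 and DESeq2 1.42.0 on recovered reads, a replicate block and each library left out.

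Per the study's methods, each treated culture grew on the same plate as its control. Pairs follow title numbers for TSA and consecutive library names for NaB, and deviations from group means correlated within pairs at 0.284, 0.392 and 0.314 for TSA and 0.342 for NaB (with 2 libraries per group, both NaB pairs share this value). The study's methods state that different biological replicates were used. Read counts of libraries within a group differed beyond counting noise (chi-square per degree of freedom 8.17 to 31.6), so none was counted as a duplicate. Gene order and the promoter came from RefSeq tables of GRCr8, whose other coordinates were not used here.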

Additional observations from a re-analysis of the deposited data

How the results depend on the processing

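None of the 4 tested genes (Hoxc13, Hoxc10, Hoxc4, Hoxb13) was called in the difference between the responses under any alternative, although the adjusted p is missing for 3 of them in DESeq2. The sign of the difference was less steady. Hoxc10 turned to 0.18 and Hoxb13 to 0.15 with a pseudocount of 5. With a library left out, Hoxb13 ranged from -0.95 to 0.67, Hoxc4 from -0.13 to 0.43 and Hoxc8 from -0.34 to 0.0096. Hoxb13 became positive without control replicate 1 or 2 for TSA (0.036 each), TSA replicate 1 (0.075) or 3 (0.13), or control replicate 5 for NaB (0.67). Hoxc4 became negative without TSA replicate 2 (-0.13), and Hoxc8 positive without NaB replicate 1 (0.0096). Hoxc13 remained positive (0.35 to 3.60, adjusted p 0.292 to 0.734). On the recovered reads, Hoxc10 differed by -3.12 in edgeR and -2.35 in DESeq2, beyond its limma interval, and Hoxb13 by -1.12 and -1.28 (adjusted p over all alternatives 0.396 to 0.89 for Hoxc10 and 0.698 to 0.993 for Hoxb13). Hoxc13 differed by 3.60 and 2.85, also beyond its limma interval. The cause was not tested.

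The number of genes called in the difference was 47, against 31 without the filter, 71 with library totals, 255 with DESeq2 and 404 with the replicate block. It ranged from 1 to 45 with a library left out, and fell to 1 without control replicate 5 and 3 without control replicate 4 for NaB, 6 without NaB replicate 1 and 17 without replicate 2, 14 without control replicate 1 and 20 without replicate 3 for TSA, and 21 without TSA replicate 3. Genes called with TSA numbered 6644 (6164 to 6718 with a library left out) and with NaB 6521 (5649 to 6581). Of those called with TSA, 53.3% were higher, and 68.3% with library totals, which moved the median log2 change of all tested genes from 0.02 to 0.20 with TSA and to 0.13 with NaB. The block changed no call of the 4 tested genes. The log2 changes with each drug kept their direction under every alternative that gave a value (for Hoxc8 and Hoxc6 not edgeR, DESeq2 or the block), where 164 values stayed within the spread between replicates and 40 moved beyond it. Depth limits the folds of these genes, since each control group held 0 to 4 reads of a gene in all.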
